A study of Mus musculus with 8 samples.

Results

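Expression of 8 protein kinase C (PKC) isoforms, Prkca, Prkcb, Prkcd, Prkce, Prkch, Prkci, Prkcq and Prkcz, was examined in the medial ganglionic eminence (MGE) of WT and Nkx2-1cKO mice. The isoforms were found as the probes, other than control spots, whose accession in the array design maps to one of these gene symbols, which gave 14 probes for 8 of the 17178 symbols measured. They were chosen by their signal in the same 4 WT and 4 Nkx2-1cKO arrays, so their levels and differences are given below as a description without a test. The MGE is the part of the embryonic ventral telencephalon that gives rise to cortical interneurons and to neurons of the pallidum, and Nkx2-1 encodes the homeodomain transcription factor that specifies it.

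The MGE was microdissected at embryonic day 13.5 from C57BL/6 mice, and 1 RNA sample was hybridised to each 1-colour Agilent whole mouse genome array. The labels give the genotype Nkx2-1flox/+;Olig2tva-cre- for the 4 WT samples and Nkx2-1flox/+;Olig2tva-cre+ for the 4 samples titled KO, so both groups carried the floxed allele and differed in the Cre transgene. The label of the mutant group names 1 floxed allele, whereas the study's methods name the homozygous floxed strain, and the groups here follow the titles. In Olig2-tva-Cre mice the recombinase is expressed from the Olig2 locus, so that only cells of the Olig2 lineage, which includes MGE progenitors, lose the floxed gene. The labels do not state whether the samples came from separate embryos or from pools, and the spread between the 4 arrays of a group may therefore be technical. Because tissue was measured in bulk, fewer cells expressing a gene and less RNA per cell cannot be told apart.

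PKC isoforms are serine/threonine kinases that carry signals from receptors at the cell surface. Receptors coupled to Gq proteins or to tyrosine kinases activate phospholipase C, which cleaves a membrane lipid into inositol trisphosphate, a trigger of calcium release, and diacylglycerol. The conventional isoforms (Prkca, Prkcb) bind both calcium and diacylglycerol, the calcium-independent isoforms (Prkcd, Prkce, Prkch, Prkcq) bind diacylglycerol alone, and the atypical isoforms (Prkci, Prkcz) respond to neither. Atypical PKC works with the Par3 and Par6 proteins in the apical polarity of neural progenitors, whereas conventional and calcium-independent isoforms are known for phosphorylating proteins of the cytoskeleton and synapse such as MARCKS and GAP43.

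The promoters of Prkcq, the isoform with the largest difference, and of Prkcb and Prkcd, whose mutant values all lay above the WT values at their first (brightest) probes, are printed to show what sequence lies before their starts. Each is the 250 bases upstream of an annotated start (RefSeq, GRCm38.p6), written 5′ to 3′ on the strand of the gene. Capitals mark matches, on either strand, to CAAGTG (the core bound by NKX2-1), TAATTA (LHX6), TGACAG (MEIS), ATGCAAAT (the octamer), ACAATG (SOX) or CANNTG (the E-box). The NKX2-1 core also matches the E-box pattern.
Prkcq, chr2:11172132-11172381, plus strand: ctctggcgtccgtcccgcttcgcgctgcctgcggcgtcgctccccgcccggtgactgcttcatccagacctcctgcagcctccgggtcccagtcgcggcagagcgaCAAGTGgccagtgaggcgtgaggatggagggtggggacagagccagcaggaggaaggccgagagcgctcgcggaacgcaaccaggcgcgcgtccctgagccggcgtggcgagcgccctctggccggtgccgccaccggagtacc
Prkcb, chr7:122288875-122289124, plus strand: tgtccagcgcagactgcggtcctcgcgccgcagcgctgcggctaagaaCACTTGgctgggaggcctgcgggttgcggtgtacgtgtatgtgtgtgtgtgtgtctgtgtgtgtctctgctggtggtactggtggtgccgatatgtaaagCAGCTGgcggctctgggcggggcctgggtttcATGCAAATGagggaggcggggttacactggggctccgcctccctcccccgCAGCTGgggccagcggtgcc
Prkcd, chr14:30626209-30626458, minus strand: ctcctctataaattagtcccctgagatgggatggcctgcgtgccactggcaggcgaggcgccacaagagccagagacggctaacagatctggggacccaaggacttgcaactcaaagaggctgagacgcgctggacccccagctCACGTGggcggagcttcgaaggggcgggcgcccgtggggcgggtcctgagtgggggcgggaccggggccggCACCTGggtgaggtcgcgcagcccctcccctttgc

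The single match in the Prkcq window was CAAGTG on the plus strand, and the Prkcb window held the same core on the other strand beside the octamer and E-box matches. The Prkcd window printed held E-box matches and none of the other patterns. Windows were found for 6 of the 8 isoforms, 9 windows in all, and none for Prkce or Prkch. The NKX2-1 core was present in 3 of the 9 windows, those of Prkcb, Prkcq and 1 of the Prkcz starts, and in 11.6% of all 32851 windows. The octamer was present in the Prkcb window and in 1.6% of all windows. The E-box pattern was present in 8 of the 9 windows and in 66.2% of all windows. MEIS was matched in 1 isoform window, the other Prkcd start, and in 15.9% of all windows. LHX6 and SOX patterns had no match in the isoform windows and were present in 4.84% and 10.7% of all windows. The Prkcq, Prkcb and Prkcd windows shown contained 72.4%, 65.2% and 67.6% G and C, against a median of 52.4% over all windows. These matches describe letters in the window and are not evidence of binding.

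All values that follow are log2 signals of a probe relative to the 75th percentile of its array, so that 0 is the 75th percentile and each unit is a doubling. Levels of different probes are not comparable with each other. A difference is the Nkx2-1cKO mean minus the WT mean, with its standard error (SE) from the fit of limma over all 31280 tested probes. For genes with several probes, the brightest on average is called the first probe and stands for the gene.

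The arrays titled KO had almost no Nkx2-1 signal, which fits their title and goes against the single floxed allele in their genotype label. Nkx2-1 signal in the mutant was 1.24% of WT (log2 difference -6.34, SE 0.11, adjusted p = 4.77e-09 by limma), and its targets Lhx6 and Lhx8 were at 5.43% and 7.88% of WT. The share of probes well above background ranged from 76.0% to 79.3% on the WT arrays (median 76.8%). On the Nkx2-1cKO arrays it ranged from 71.1% to 79.5% (median 72.1%). WT array 1 read high among dim probes, by a median of 1.22 in the dimmest of 5 equal classes of brightness and 0.37 in the next, which holds the first probes of Prkcq, Prkce and Prkch; the other 7 arrays lay between -0.40 and 0.23 in the dimmest class. The arrays came from 2 slides, each with 2 WT and 2 Nkx2-1cKO arrays. Within-slide differences are given below for Dgkg, both Prkcq probes and the first probes of Prkca, Prkcb, Prkcd and Prkch.

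All 14 probes and all 8 isoforms passed the filter on dim signal (flagged as well above background on 4 or more arrays) and entered the fit. Of the 8 isoforms, 4 had a lower and 4 a higher mean in Nkx2-1cKO, with a median difference of -0.03, against -0.04 over all tested probes and -0.00 over the genes with a symbol. Every mutant array lay below every WT array for 3 isoforms, Prkcq, Prkca and Prkci, and above for 2, Prkcb and Prkcd. The corresponding shares among all genes with a symbol were 4.03% lower and 2.91% higher. Over single probes these counts were 4 lower and 2 higher of 14, beside 4.12% and 2.33% of all tested probes. Of the isoforms, 1 (Prkcq) lay past the adjusted p threshold of 0.05 among lower genes and 0 among higher genes, where the shares over all genes with a symbol were 0.851% and 0.491%. The counts of probes past the threshold were 2 lower, both of Prkcq, and 0 higher, beside 0.614% and 0.422% of all tested probes. The isoforms were chosen on this contrast, and nothing is read from these counts.

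**Figure D1:**
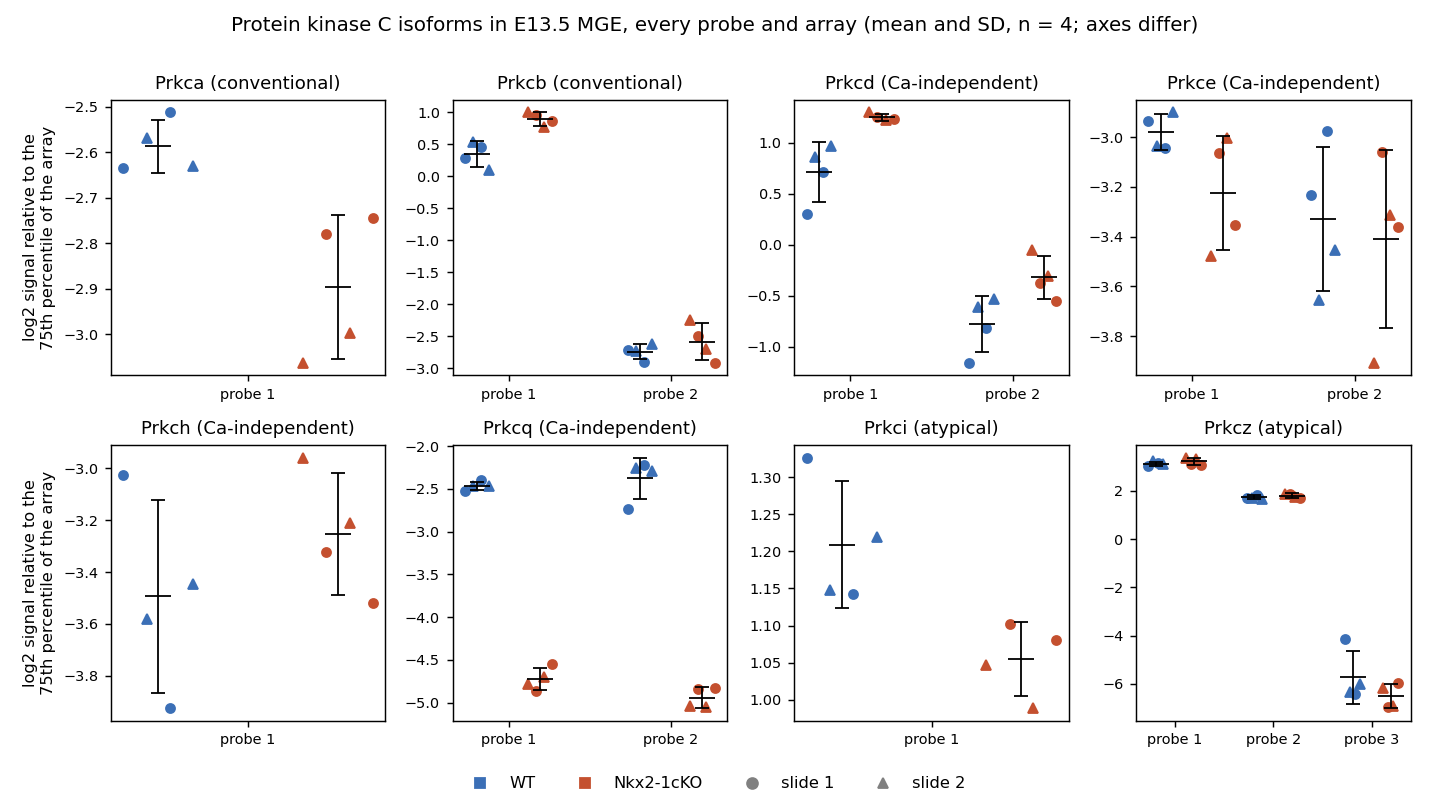
Log2 signal relative to the 75th percentile of the array (vertical axes, which differ between panels) for each probe of the 8 isoforms on 4 WT (blue) and 4 Nkx2-1cKO (red) arrays; circles are arrays of slide 1, triangles arrays of slide 2, and black lines the mean and SD. Both Prkcq probes separate the groups by more than 2 units, whereas the other panels show differences below 1 unit or overlapping arrays.

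Among the conventional isoforms, Prkca, a widely expressed kinase that is recruited to the membrane by calcium, was at 80.7% of its WT signal. Its 4 WT arrays read -2.63, -2.57, -2.51 and -2.63, and the 4 Nkx2-1cKO arrays -3.06, -2.78, -3.00 and -2.74. The groups did not overlap, with means of -2.59 ± 0.06 and -2.90 ± 0.16 (SD, n = 4 each), and the difference was -0.31 (SE 0.11). Slide 1 alone gave -0.19 and slide 2 alone -0.43, and the difference lay between -0.36 and -0.25 when single arrays were left out.

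Prkcb, the other conventional isoform and one that is abundant in forebrain neurons, had 1.46 times its WT signal in the mutant at the first probe. The WT arrays read 0.28, 0.54, 0.46 and 0.10, and the Nkx2-1cKO arrays 1.00, 0.96, 0.77 and 0.86. Every mutant array was above every WT array, the means were 0.35 ± 0.20 and 0.90 ± 0.10 (SD, n = 4 each), and the difference was 0.55 (SE 0.11). It was 0.54 on slide 1 and 0.56 on slide 2. At the second Prkcb probe the WT arrays read -2.71, -2.73, -2.90 and -2.62 and the mutant arrays -2.24, -2.49, -2.69 and -2.91, so that the groups overlapped and the difference was 0.16 (SE 0.15). It was 0.04 (SE 0.14) without Nkx2-1cKO array 1, 0.10 without WT array 3 and 0.26 without Nkx2-1cKO array 4.

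Among the calcium-independent isoforms, Prkcq (PKC theta) had the largest difference of the family. It is best known for signalling at the T cell receptor and is also expressed in skeletal muscle and parts of the nervous system. At the first probe the WT arrays read -2.53, -2.47, -2.40 and -2.47, and the Nkx2-1cKO arrays -4.78, -4.86, -4.70 and -4.55. The groups were separated by far more than their spread, with means of -2.47 ± 0.05 and -4.72 ± 0.13 (SD, n = 4 each), and the mutant signal was 21.0% of WT. The difference of -2.25 (SE 0.12) was the 38th most negative of 31280 tested probes. It was -2.24 on slide 1 and -2.27 on slide 2.

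The second Prkcq probe behaved alike. Its WT arrays read -2.73, -2.26, -2.22 and -2.29, and its mutant arrays -5.04, -4.84, -5.05 and -4.83. The means were -2.38 ± 0.24 and -4.94 ± 0.12 (SD, n = 4 each), the difference was -2.56 (SE 0.15), ranked 23rd, and the mutant signal was 16.9% of WT. Slide 1 alone gave -2.36 and slide 2 alone -2.77. WT array 1 was the lowest of the WT arrays at this probe, and without it the difference was -2.68. Both probes were flagged well above background on all 8 arrays. The Nkx2-1 probe was flagged on all 8 as well, with a mutant mean of -4.46. The flag alone therefore does not show that the mutant tissue retained Prkcq RNA. The size of the difference depended on the background correction. With the normal-exponential background model (normexp) and an offset of 50, which draws dim signals together, it was -1.04 at the first probe and -1.14 at the second. In that setting Nkx2-1cKO array 1 read -1.42 at the first probe and -1.43 at the second, above all WT arrays, while the other 3 mutant arrays lay between -4.22 and -3.88. On that array 7 spots had a local background over 10 times the median of the array, and no spot did on the other 7 arrays. After these spots were given the median background, an alternative added after seeing the data, array 1 read -3.92 at the first Prkcq probe, the groups were apart again at both probes, and the difference at the first probe was -1.67 (SE 0.11). The sign of the Prkca difference also turned on this array: with normexp the Prkca difference was 0.09, and -0.27 after the correction.

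Prkcd (PKC delta), a kinase linked to apoptosis and to cytokine and growth factor signalling, was higher in the mutant at its first probe, with 1.46 times the WT signal. The WT arrays read 0.30, 0.86, 0.72 and 0.97, and the Nkx2-1cKO arrays 1.30, 1.26, 1.23 and 1.23. The mutant arrays lay close together above all WT arrays, the means were 0.71 ± 0.29 and 1.25 ± 0.03 (SD, n = 4 each), and the difference was 0.54 (SE 0.13). It was 0.74 on slide 1 and 0.35 on slide 2, and without WT array 1, the lowest, it was 0.41. The second Prkcd probe read -1.16, -0.61, -0.82 and -0.54 in WT and -0.05, -0.37, -0.30 and -0.56 in the mutant. Its means were -0.78 ± 0.28 and -0.32 ± 0.21 (SD, n = 4 each) and its difference 0.46 (SE 0.16), with the lowest mutant array just under the highest WT array.

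The other 2 calcium-independent isoforms had overlapping groups. Prkce (PKC epsilon), an isoform associated with actin and neurite outgrowth, read -2.93, -3.04, -3.04 and -2.90 in WT and -3.48, -3.06, -3.00 and -3.35 in Nkx2-1cKO at the first probe, a difference of -0.25 (SE 0.14), which was -0.16 without Nkx2-1cKO array 1. With normexp the Prkce difference was 0.23, and -0.20 after the correction described for Prkcq. The second Prkce probe differed by -0.08 (SE 0.21), and its sign turned without WT array 3 (0.04) or Nkx2-1cKO array 1 (0.09). Prkch (PKC eta), an isoform known from epithelia and T cells, read -3.02, -3.58, -3.92 and -3.44 in WT and -2.96, -3.32, -3.21 and -3.52 in Nkx2-1cKO. Its difference was 0.24 (SE 0.20), 0.05 on slide 1 and 0.43 on slide 2, and it was 0.10 without WT array 3, 0.14 without Nkx2-1cKO array 1 and 0.40 without WT array 1. At every probe of both isoforms the range of the mutant arrays thus overlapped that of the WT arrays.

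The atypical isoforms are those of the polarity complex. Prkci (PKC iota), the catalytic partner of the Par complex at the apical surface of progenitors, read 1.33, 1.15, 1.14 and 1.22 in WT and 1.05, 1.10, 0.99 and 1.08 in Nkx2-1cKO. All mutant arrays were below all WT arrays, but by a small margin: the difference was -0.15 (SE 0.08), or 89.9% of the WT signal, and it was -0.03 when arrays were centred on their medians. Prkcz (PKC zeta), whose gene also gives rise to the brain-specific form PKM zeta, read 3.02, 3.22, 3.14 and 3.13 in WT and 3.37, 3.12, 3.33 and 3.07 in Nkx2-1cKO at its first probe. The groups overlapped there (difference 0.10, SE 0.09, and between 0.05 and 0.15 with single arrays left out, lowest without Nkx2-1cKO array 1 and highest without array 4) and at the second probe (0.07, SE 0.08). The third Prkcz probe passed the background flag on 4 WT arrays but on 2 of the mutant arrays. It differed by -0.78 (SE 0.53) and by -0.24 without WT array 1, which read -4.12 against -6.43 to -6.01 on the other WT arrays.

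**Figure D2:**
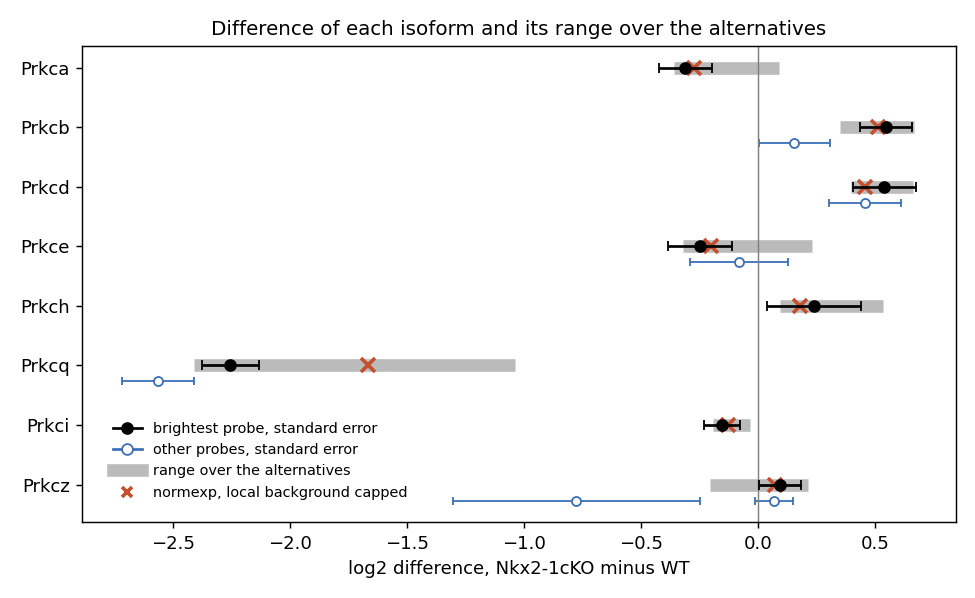
Log2 difference between Nkx2-1cKO and WT (horizontal axis) for each isoform, with the first probe (black) and other probes (open blue) and their SE; the grey bar spans the alternative settings, and the red cross marks normexp after the spots of high local background were corrected. Prkcq lies apart from the other isoforms, at -2.25 with a span from -2.41 to -1.04, and the spans of Prkca, Prkce and Prkcz reach across 0.

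The genes most alike in signal over the 8 arrays were found among the tested genes with a symbol. Because the arrays fall into 2 groups, a high correlation can follow the group difference alone, and r after removal of the group means is given where it differs. Prkcq was most alike to Nkx2-1 (Pearson r = 0.997, 0.19 after removal of group means) and Elfn1 (r = 0.995, then 0.31), which encodes a synaptic adhesion protein of interneurons and differed by -1.90. Prkcb was most alike to Syt13 (r = 0.968), a synaptotagmin, and Foxp2 (r = 0.966), a transcription factor of striatal neurons. Their differences, 0.56 and 0.60, were close to that of Prkcb, and r was 0.83 and 0.82 after removal of the group means.

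For the other isoforms the likeness was also present within the groups, with r between 0.83 and 0.999 after removal of the group means. Prkcd was most alike to Rgs19 (r = 0.979) and Timm44 (r = 0.974), Prkca to Vav2 (r = 0.970) and Sel1l3 (r = 0.951), and Prkci to Cltrn (r = 0.986) and Fcgr2b (r = 0.985). Prkce was most alike to Lgals3 (r = 0.947) and Sv2b (r = 0.936), Prkch to Xpo5 (r = 0.996) and Sp5 (r = 0.966), and Prkcz to Cyrib (r = 0.999) and Bloc1s5 (r = 0.988). These are the highest of 14447 genes, each over 8 arrays that share their scaling, and are given as a description.

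Markers of other cell types and regions were read on the same arrays, as summed linear signal relative to the 75th percentile. The 9 markers of MGE and subpallium summed to between 86.5 and 91.2 in WT and between 52.2 and 61.2 in the mutant, with 3 past the threshold, all lower. The 5 markers of the lateral ganglionic eminence and striatal neurons all had higher means in the mutant, with sums of 5.80 to 7.14 in WT and 9.32 to 15.6 in the mutant, and 3 rose past the threshold: Ebf1 (log2 difference 1.37), Isl1 (1.26) and Foxp2 (0.60). Prkcb and Prkcd were higher on the same arrays, and the part of these cells in their differences was not tested. The T cell markers, listed because Prkcq and Prkch are well known from T cells, summed to 0.522 to 0.556 in WT and 0.463 to 0.539 in the mutant, with 3 of 4 lower and none past the threshold. Lck made up most of each sum, with readings of -1.46 to -1.03 in WT and -1.28 to -1.14 in the mutant, and the sums therefore say little about the dimmer markers. Cd4 differed by -0.62, Cd3g, which was well above background on 4 of 8 arrays, by -0.73, Cd3e by -0.07 and Lck by 0.00. WT array 1, which read high among dim probes, stood apart for Cd4 and Cd3g. It read -3.63 for Cd4, against -5.91 to -5.43 on the other WT arrays. For Cd3g it read -4.61, against -7.01 to -6.17. The part of T cells in the Prkcq difference was not tested. The 5 microglia markers summed to 2.36 to 2.46 in WT and 2.44 to 2.59 in the mutant, with 1 lower and 4 higher. Sums of markers of pallium (11.5 to 14.7 in WT, 8.48 to 15.8 in the mutant), erythroid cells (241 to 346 and 243 to 345), endothelium (6.59 to 9.41 and 7.38 to 9.03) and mesenchyme (0.742 to 6.78 and 0.697 to 1.29) overlapped between the groups, with none past the threshold. The highest mesenchyme sum was that of WT array 4, where Col3a1 read 1.26, against -1.61 to -1.17 on the other WT arrays.

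The other genes of the pathway, which the choice of isoforms did not use, were tested by limma with p adjusted over all probes. The lists of these genes were written with earlier results of the same data known. Of 74 genes in 7 lists, 68 had a tested probe, and 1 passed the threshold, in the lower direction, where the share over all genes with a symbol was 0.851%. Their median difference was -0.03, the means of 39 were lower and of 29 higher, and every mutant array lay below every WT array for 2 genes and above for 1, beside shares of 4.03% and 2.91% over all genes with a symbol.

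Dgkg, a diacylglycerol kinase that removes the lipid activator of conventional and calcium-independent PKC by phosphorylating it, was the gene that passed. Its WT arrays read -2.92, -2.44, -2.15 and -2.69, and its Nkx2-1cKO arrays -4.79, -4.55, -4.86 and -4.85. The groups lay far apart, and Dgkg fell to 21.6% of the WT signal, from -2.55 ± 0.33 to -4.76 ± 0.15 (SD, n = 4 each; log2 difference -2.21, SE 0.18, limma adjusted p = 0.000318). It fell by 2.16 on slide 1 and by 2.26 on slide 2. With normexp the difference was -0.97 and its adjusted p 0.847. In that setting Nkx2-1cKO array 1 read -1.41 and the other mutant arrays -3.96 to -3.83, and after the correction of the 7 spots the difference was -1.59 (adjusted p = 0.000473 by limma). Over the remaining alternatives the adjusted p of Dgkg lay between 0.000268 and 0.0145.

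The other 7 tested diacylglycerol kinases did not pass, and the median of the 8 was -0.00. None of the 16 G proteins and phospholipases C that produce diacylglycerol passed (median -0.07). The largest difference among them was that of Plcd4, a phospholipase C of the delta class, at -0.53 (SE 0.18, limma adjusted p = 0.38), with all mutant arrays below all WT arrays. None of 9 tested genes of the Munc13, RasGRP and chimaerin families passed (median -0.12). Many but not all members of these families have a diacylglycerol-binding C1 domain. Unc13c, a Munc13 priming factor of synaptic vesicles, had the largest difference (-0.29, SE 0.16, limma adjusted p = 0.637), and Chn2, a Rac GTPase-activating protein named for its non-overlapping groups after its values were seen, differed by 0.22 (SE 0.08, limma adjusted p = 0.443).

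None of the 7 other kinases of the family passed (median -0.10). None of 8 genes for priming, anchoring and dephosphorylation of PKC passed (median 0.01), with the largest difference for Pick1, a PDZ protein that binds PRKCA (0.23, SE 0.17, limma adjusted p = 0.674). None of the 10 substrates passed (median 0.07), with the largest difference for Gap43, the growth cone protein (0.30, SE 0.14, limma adjusted p = 0.595). None of 10 polarity partners of atypical PKC passed (median 0.04), with the largest difference for Llgl2, a homologue of lethal giant larvae (-0.59, SE 0.28, limma adjusted p = 0.601). WT array 1 read -3.34 for Llgl2, against -4.69 to -4.20 on the other WT arrays. A p above the threshold does not show that these genes were equal between the groups.

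**Figure D3:**
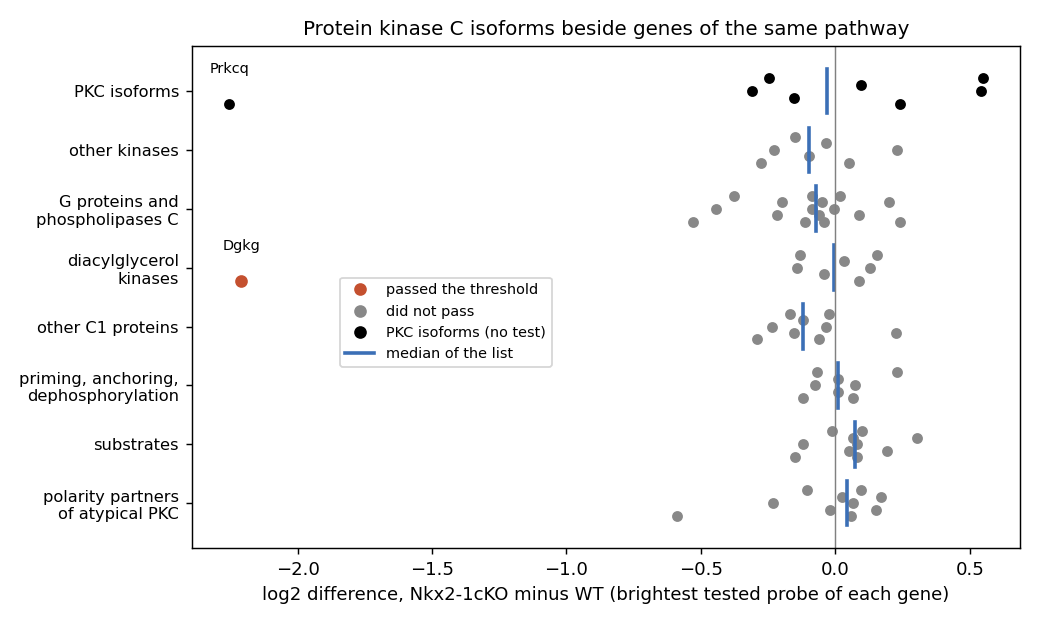
Log2 difference between Nkx2-1cKO and WT (horizontal axis) of each PKC isoform (black) and each tested gene of 7 pathway lists (grey, red where past the threshold), 1 point per gene at its first probe, with list medians as blue lines. Prkcq (-2.25) and Dgkg (-2.21) stand apart at the left, and the list medians lie between -0.12 and 0.07.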

How the data were processed

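MGE RNA of 4 WT and 4 Nkx2-1cKO samples was hybridised to 1-colour Agilent arrays. The authors deposited Feature Extraction output (version 10.7.3.1 per the file headers, 10.1 per the submitters' processing notes), in which spot intensity is background-subtracted and detrended, without scaling between arrays. Steps after Feature Extraction are not given in the sources used here. Control and outlier spots were left out, no spot was saturated, log2 intensity was taken relative to each array's 75th percentile (2407 to 2574 in WT, 2028 to 2519 in Nkx2-1cKO), and replicate spots were averaged. The accessions of 24844 of 41174 probes matched 17178 symbols (RefSeq table, GRCm38.p6). Probes flagged well above background on 4 or more arrays, 31280 with 50 missing values, were fitted by lmFit and eBayes with a variance trend (limma 3.58.1, R 4.3.3; Benjamini-Hochberg threshold 0.05). The fit was tested on simulated data.

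The isoforms, gene lists and markers were chosen with earlier results of these data known. Named genes are the isoforms, pathway genes past the threshold, the gene with the largest difference in each list without one, the 2 genes most alike to each isoform, and Nkx2-1, Lhx6 and Lhx8. The result for 1 gene that this rule names is not reported here. Alternatives were quantile normalization, median centring, normexp on the median signal and local background, no filter, a filter on mean signal, averaging the probes of a gene, a fit without the variance trend, a block for slide or for replicate number, each array left out and, added after seeing the data, normexp with high local backgrounds replaced. The number of arrays limits the precision.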

Additional observations from a re-analysis of the deposited data

Results flagged for a closer look

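At the second Prkcq probe, WT array 1 read -2.73 and stood apart from the other 3 WT arrays, which lay between -2.29 and -2.22. The gap was 0.869 of the range of the group, above Dixon's critical value for 4 values. This was 1 of 28 groups of 4 arrays examined over the 14 isoform probes, and chance alone singles out about 1 group in 20. The array was nearer to the mutant values than the other WT arrays, and the difference was -2.56 with it and -2.68 without it.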

How the results depend on the processing

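With the settings of the report, 192 probes were lower and 132 higher. Median centring gave 115 lower probes, normexp 90 lower and 63 higher, slide as a block 209 higher, the replicate block 65 lower and 8 higher, and no variance trend 87 higher. Leaving out single arrays gave 130 to 174 lower and 65 to 118 higher probes, the fewest higher ones without Nkx2-1cKO array 1. The pathway count was 1 in every one of these settings, including each array left out (1 to 1), except normexp, where it was 0 and Dgkg differed by -0.97 (limma adjusted p = 0.847). Normexp with high local backgrounds replaced gave 151 lower, 104 higher and 1 pathway gene. That setting changed 7 spots of Nkx2-1cKO array 1 alone, where signal minus local background reached -43434.5. Of the 324 calls, 126 were shared with normexp, 247 with the corrected normexp, 195 with median centring and 73 with the replicate block. Same-numbered WT and Nkx2-1cKO arrays lay on different slides, and their deviations correlated at -0.48 to -0.19. A difference between slides would also lower these values, so they cannot tell whether the numbers pair the arrays. The replicate block changed no pathway call.

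Prkcq kept its direction in all 18 settings, from -2.41 (mean of its probes) to -1.04 (normexp). Prkca became 0.09 and Prkce 0.23 with normexp, where the median of all probes was 0.20, and both were negative in the other 17 settings. Prkcz became -0.02 with normexp and -0.20 for the mean of its probes, and Prkcb was 0.35 for the mean of its probes. Of 214 values, 188 kept their call, moved by less than 1 SD or, for counts, stayed within 1.5 times. With the corrected normexp, Prkca was -0.27 and Prkce -0.20, close to the report, and Prkcq was -1.67. The size of the Prkcq and Dgkg differences thus depends on the background correction.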
